A study of Mus musculus with 14 samples.

Results

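The genes of respiratory complexes III, IV and V were taken as those whose symbol in the platform annotation starts with Uqcr, with Atp5, or with Cox followed by a digit. They came to 51 genes of the 19505 distinct symbols, read by 51 of the 22206 probe sets tested. Each had 1 probe set, so that none had to be chosen. By role, 8 belong to complex III, 26 to complex IV and 17 to complex V. The name rule takes in structural subunits, tissue isoforms and assembly factors, and it leaves out subunits with other names, such as Cyc1 of complex III and Ndufa4 of complex IV, which are given apart from the members.

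RNA from cultured mouse hematopoietic progenitor cells was measured on 14 Affymetrix arrays. The cells were lineage-negative bone marrow cells, separated magnetically, cultured and then infected with a murine retrovirus made in GP+E86 packaging cells. Polg encodes the catalytic subunit of the mitochondrial DNA polymerase, and the mice carried no mutant copy of it (Polgwt/wt, WT), 1 mutant copy (Polgwt/mut, Het) or 2 (Polgmut/mut, Hom). The virus carried either YFP alone (MSCV-IRES-YFP, Ctrl) or N-Myc and YFP (MSCV-NMyc-IRES-YFP, NMyc), so that all 14 samples had been through culture and retroviral infection. There were 3 arrays each of WT-Ctrl and Het-Ctrl, 2 of Hom-Ctrl and 2 of each NMyc group, called biological replicates in the labels. The comparisons this design allows are NMyc against Ctrl within each genotype and averaged over the 3, genotype against genotype under each vector, and the difference of the N-Myc effect between genotypes.

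Complex III passes electrons from reduced coenzyme Q to cytochrome c, complex IV passes them on to oxygen, and both pump protons across the inner mitochondrial membrane. Complex V, the ATP synthase, lets the protons flow back through a rotating ring of c subunits and uses that flow to make ATP in its F1 head. Most subunits are nuclear genes, while a small part of each complex is encoded in the mitochondrial DNA that Polg copies. A working complex thus needs subunits of both genomes together with dedicated assembly factors.

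Values were log2 probe-set signals, on which levels of different genes cannot be set against each other. Mycn was at 7.43 to 7.76 on the WT-Ctrl arrays and 7.50 to 7.65 on the Het-Ctrl arrays, and at 12.15 to 12.38 with the N-Myc virus. The related gene Myc was lower with that virus. Its means in WT, Het and Hom were 11.41, 11.41 and 11.26 under Ctrl, and 9.69, 9.95 and 10.49 under NMyc. Hom-Ctrl was split, with Mycn at 7.61 in replicate 2 but 9.77 in replicate 1, higher than in any other Ctrl sample. Several results that rest on Hom-Ctrl are therefore given also without replicate 1, and the others rest on both replicates. Pairwise correlations between arrays over the tested probe sets ran from 0.958 to 0.994. Of the members, 49 were above the median of the negative-control probe sets of the array on all 14 arrays and 37 were above their 95th percentile on all 14. The members that were never above that percentile were 5 tissue isoforms, Cox4i2, Cox7a1, Cox7b2, Cox8b and Cox8c. At the other end, Cox7c was above the 99th percentile of all tested values on all 14 arrays.

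The stretch before the transcription start was available for 39 of the 51 genes (RefSeq, GRCm38.p6), and 3 motifs were searched on both strands from 250 bases before to 50 bases after the start. The E-box CACGTG, which Myc proteins bind, was found in 4 of the 39 genes (10.3%) and in 8.09% of all 27025 genes with such a window, a share close to that of the members. The 4 genes were Atp5g1, Atp5g3, Atp5l and Atp5pb. The palindromic GC-rich motif of nuclear respiratory factor NRF1, with its central base left free, was in 8 of the 39 (20.5%) and in 5.19% of all genes. The ETS motif CCGGAAG, of the kind that GABP binds, was in 15 of the 39 (38.5%) and in 9.93% of all genes. Of the 28 genes with a window that rose with N-Myc averaged over genotypes, 4 held the E-box, 7 the NRF1 motif and 11 the ETS motif. Among the 11 others these numbers were 0, 1 and 4. Whether a motif goes with the direction of change was not tested. The windows below were picked as examples, are 170 bases each and end at the base before the start. They show matches of the 3 motifs in 4 genes that rose with N-Myc. The last window is that of Cox7a2l, which was lower on every NMyc array and holds none of them. Capitals mark the motif matches, on either strand.
Atp5g1, chr11:96075632-96075801, minus strand: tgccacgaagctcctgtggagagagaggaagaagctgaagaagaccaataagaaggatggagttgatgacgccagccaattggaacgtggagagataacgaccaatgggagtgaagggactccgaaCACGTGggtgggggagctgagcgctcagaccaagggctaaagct
Atp5g2, chr15:102671048-102671217, minus strand: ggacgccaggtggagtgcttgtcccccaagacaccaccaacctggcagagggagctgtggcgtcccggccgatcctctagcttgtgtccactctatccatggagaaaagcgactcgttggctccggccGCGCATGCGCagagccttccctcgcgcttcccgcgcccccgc
Cox6a1, chr5:115348959-115349128, minus strand: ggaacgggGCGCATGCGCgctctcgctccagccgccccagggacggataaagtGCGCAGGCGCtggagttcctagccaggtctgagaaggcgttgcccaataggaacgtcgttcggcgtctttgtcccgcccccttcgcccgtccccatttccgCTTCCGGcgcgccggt
Cox10, chr11:64079473-64079642, minus strand: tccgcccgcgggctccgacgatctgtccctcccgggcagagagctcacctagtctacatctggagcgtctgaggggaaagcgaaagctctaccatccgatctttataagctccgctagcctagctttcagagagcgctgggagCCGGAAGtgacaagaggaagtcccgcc
Cox7a2l, chr17:83514334-83514503, minus strand: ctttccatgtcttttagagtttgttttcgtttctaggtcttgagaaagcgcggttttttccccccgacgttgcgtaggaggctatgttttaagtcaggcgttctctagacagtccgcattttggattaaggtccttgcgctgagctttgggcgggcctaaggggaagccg
The E-box of Atp5g1 starts 44 bases before the start site, the NRF1 motif of Atp5g2 42 bases before it, and the ETS motif of Cox10 27 bases before it. Cox6a1 has NRF1 motifs at 162 and 117 bases and an ETS motif at 16 bases before the start. A match is given as a description of the sequence and no binding was measured.

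With N-Myc, most structural subunits of all 3 complexes rose, and Cox7a2l and 2 tissue isoforms fell. Averaged over the 3 genotypes, 34 of the 51 members rose and 3 fell at an adjusted p below 0.05 in limma's moderated test, with Benjamini-Hochberg adjustment over all 22206 probe sets. In the same comparison 18.2% of all tested probe sets rose and 15.5% fell, 33.6% in all. The median change of the members was 0.42 on the log2 scale, against -0.02 over all probe sets, and 44 of the 51 changes were positive (46.4% of all probe sets). All 6 NMyc arrays lay above all 8 Ctrl arrays for 21 members (10.5% of all probe sets) and below them for 1, Cox7a2l (6.58%). Of the 35 structural subunits that are not tissue isoforms, 30 rose and none fell, and all 35 changes were positive. Without Hom-Ctrl replicate 1, 34 members rose and the median was 0.40. With quantile normalization of the arrays 33 rose, and with median centring 37.

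**Figure D1:**
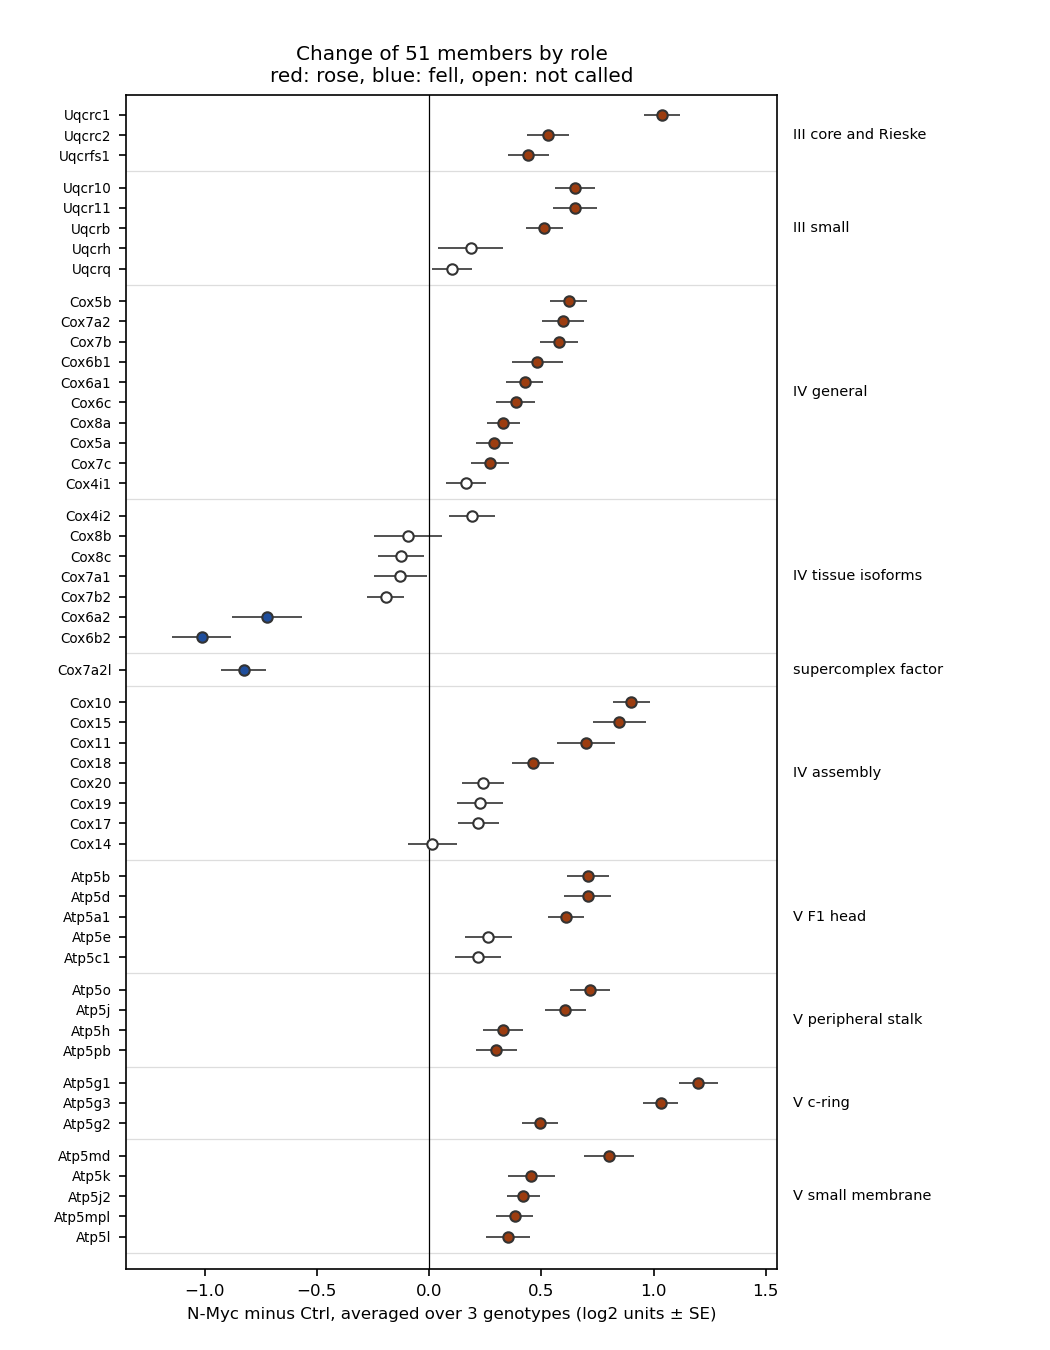
Change with N-Myc for each of the 51 members, averaged over the 3 genotypes, in log2 units on the horizontal axis with bars for the standard error of the fit; members are grouped by role and filled where the adjusted p was below 0.05. The 34 that rose spread over all classes but the tissue isoforms and Cox7a2l, and the 3 that fell are Cox6b2, Cox7a2l and Cox6a2.

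In complex III, 6 of 8 subunits rose. Uqcrc1, a core protein, read 9.09 at the lowest, 9.23 at the median and 9.67 at the highest over the 8 Ctrl arrays, and 10.26, 10.36 and 10.48 over the 6 NMyc arrays. The 2 sets of arrays did not overlap, and the change was 1.04 (SE 0.08), a 2.05-fold rise (limma, adjusted p = 6.67e-08). The other core protein, Uqcrc2, rose by 0.53 (SE 0.09) and the Rieske iron-sulfur protein Uqcrfs1 by 0.44 (SE 0.09), both with arrays that overlapped. Among the 5 small subunits, Uqcr10 and Uqcr11 each rose by 0.65 and Uqcrb, which lies near a quinone site, by 0.51. The hinge protein Uqcrh (0.18, adjusted p = 0.372 in limma) and Uqcrq (0.10, adjusted p = 0.444 in limma) did not pass.

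In complex IV, 9 of the 10 general subunits rose. Cox5b, which holds a zinc ion, ran from 10.37 to 10.83 with a median of 10.55 on the Ctrl arrays and from 10.98 to 11.28 with a median of 11.22 on the NMyc arrays. It rose by 0.62 (SE 0.08, 1.54-fold, adjusted p = 1.95e-05 in limma) with no overlap. Cox7a2, Cox7b and Cox6b1 rose by 0.60, 0.58 and 0.48. The remaining 5 that rose, Cox6a1, Cox6c, Cox8a, Cox5a and Cox7c, changed by 0.43 to 0.27. Cox4i1, the ubiquitous form of the regulatory subunit 4, changed by 0.17 (SE 0.09, adjusted p = 0.182 in limma). The call for Cox7c (adjusted p = 0.0217) was lost in 4 of 23 alternative settings, among them quantile normalization and leaving out WT-NMyc replicate 1, Het-NMyc replicate 2 or Hom-NMyc replicate 1, with adjusted p-values up to 0.0860.

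Of the 7 tissue isoforms of complex IV subunits, none passed as a rise and 2 fell. The 5 that did not pass are those never above the negative-control 95th percentile, where a change could hardly be measured. Cox6b2, the testis counterpart of Cox6b1, read 7.61, 7.34 and 6.63 on the WT-Ctrl arrays, 7.58, 7.34 and 7.56 on Het-Ctrl and 8.64 and 8.54 on Hom-Ctrl. With N-Myc it read 6.64 and 6.40 in WT, 6.62 and 6.86 in Het and 6.97 and 6.96 in Hom. Its highest values were thus the 2 Hom-Ctrl arrays, and the lowest WT-Ctrl array lay among the NMyc arrays. Its averaged change was -1.01 (SE 0.13, adjusted p = 1.39e-05 in limma), while Cox6b1 rose by 0.48 (SE 0.11, adjusted p = 0.00309). Cox6b2 was above the negative-control 95th percentile on 4 of the 14 arrays, none of them with N-Myc, so that the size of its changes is uncertain and no fold is given.

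Cox6a2, the heart and skeletal muscle counterpart of Cox6a1, read 8.83, 8.26 and 9.26 in WT-Ctrl, 8.43, 7.96 and 8.75 in Het-Ctrl and 8.47 and 8.65 in Hom-Ctrl. With N-Myc it read 7.90 and 7.49 in WT, 7.44 and 7.80 in Het and 8.27 and 8.23 in Hom, so that the Hom-NMyc arrays lay within the Ctrl range and the other 4 NMyc arrays below it. The averaged change was -0.72 (SE 0.16), 1.65-fold lower (limma, adjusted p = 0.00163), and Cox6a1 rose by 0.43 (SE 0.08). Itgad, whose annotated span overlaps that of Cox6a2, read 3.47 to 4.36 on all 14 arrays, under the negative-control medians of 4.39 to 4.87, and changed by -0.09 (adjusted p = 0.584 in limma). Of 5 striated muscle markers, 4 (Ckm, Mb, Myh6 and Tnnt2) were never above the negative-control 95th percentile, and none of the 5 was called for the averaged effect.

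The other tissue isoforms stayed near background. Cox4i2, the lung form of subunit 4, changed by 0.19 (SE 0.10, adjusted p = 0.184 in limma). The muscle forms Cox7a1 and Cox8b changed by -0.13 and -0.10, and Cox8c and Cox7b2 by -0.13 and -0.19, with adjusted p-values from 0.0898 to 0.697 in limma. Cox7b2 was under the negative-control median on all 14 arrays and Cox8b was above it on 5 of 14, so that neither was measured above background here.

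**Figure D2:**
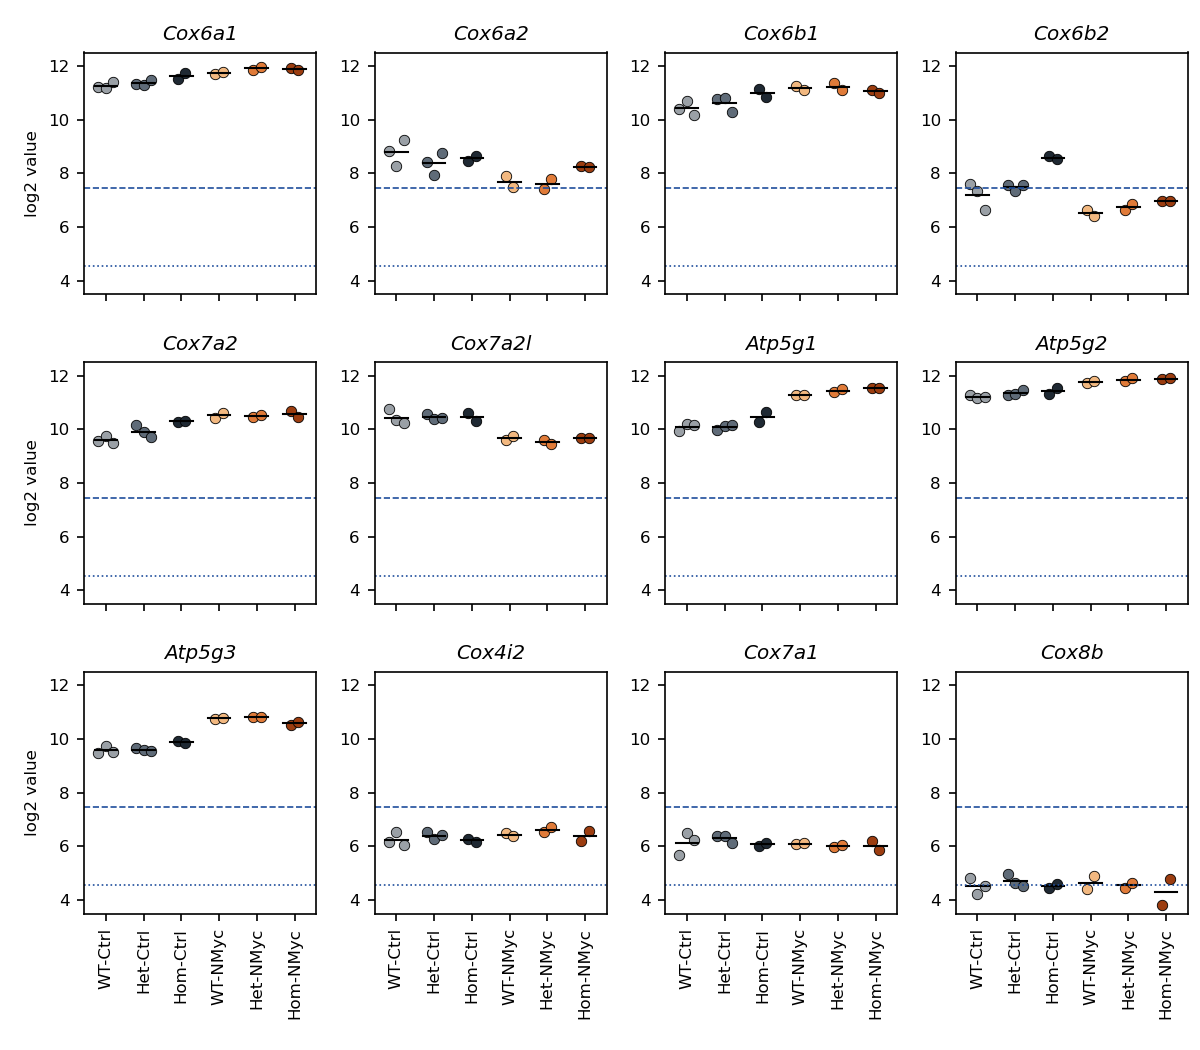
Log2 value on each array for general subunits, tissue isoforms and the c-ring genes, by group, with the group mean as a line; the dashed and dotted lines are the 95th percentile and the median of the negative-control probe sets, each taken as the median over the 14 arrays. Averaged over the genotypes, Cox6a1, Cox6b1 and Cox7a2 are higher with N-Myc while Cox6a2, Cox6b2 and Cox7a2l are lower. In Hom, Cox6b1 is nearly level and the NMyc arrays of Cox6a2 lie within its Ctrl range. Cox4i2, Cox7a1 and Cox8b stay under the dashed line.

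Cox7a2l, a relative of the Cox7a subunits that joins complexes III and IV into supercomplexes, fell on every NMyc array. It read 10.74, 10.35 and 10.22 in WT-Ctrl, 10.57, 10.40 and 10.43 in Het-Ctrl and 10.61 and 10.29 in Hom-Ctrl, against 9.59 and 9.73 in WT-NMyc, 9.60 and 9.46 in Het-NMyc and 9.69 and 9.68 in Hom-NMyc. The lowest Ctrl array was above the highest NMyc array. The averaged change was -0.83 (SE 0.10), 1.77-fold lower (limma, adjusted p = 6.21e-06), and within genotypes it was -0.77 in WT, -0.94 in Het and -0.77 in Hom, each called. Without Hom-Ctrl replicate 1 or without Hom-NMyc replicate 2 the call within Hom was lost, with adjusted p-values up to 0.0922.

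Of the 8 assembly factors of complex IV, 4 rose. Cox10 and Cox15, which make heme O and then heme A for the enzyme, rose by 0.90 (SE 0.08) and 0.85 (SE 0.12), that is 1.87-fold and 1.80-fold. Cox10 ran from 7.76 to 8.32 on the Ctrl arrays and from 8.83 to 9.10 with N-Myc, with no overlap (adjusted p = 4.29e-07 in limma). Cox15 ran from 7.36 to 8.73 on the Ctrl arrays and from 8.43 to 9.35 with N-Myc, the overlap being due to Hom-Ctrl replicate 2 at 8.73 (adjusted p = 3.11e-05). Cox11, which takes part in copper insertion, rose by 0.70 and Cox18, which helps to insert a mitochondrially encoded subunit into the membrane, by 0.46. Cox11 was above the negative-control 95th percentile on 3 of the 14 arrays, none of them Ctrl arrays, so the size of its change is uncertain. The copper chaperone Cox17 (0.22), Cox19 (0.23), Cox20 (0.24) and Cox14 (0.01) did not pass, with adjusted p-values of 0.0777, 0.108, 0.0632 and 0.941 in limma.

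In complex V, 15 of 17 subunits rose and none fell. The c-ring genes, which encode one mature protein with different import sequences, all rose but by different amounts. Atp5g1 ran from 9.93 to 10.63 with a median of 10.15 on the Ctrl arrays and from 11.26 to 11.52 with a median of 11.43 with N-Myc, and Atp5g3 from 9.49 to 9.92 and from 10.52 to 10.81. Atp5g1 rose by 1.20 (SE 0.09, 2.30-fold, 95% interval 1.01 to 1.39, adjusted p = 4.78e-08 in limma), the largest averaged change of the 51 members. Atp5g3 rose by 1.03 (SE 0.08, 95% interval 0.86 to 1.20). Atp5g2 rose by 0.49 (SE 0.08, 95% interval 0.32 to 0.66), an interval below those of Atp5g1 and Atp5g3. The difference between the genes itself was not tested.

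In the F1 head, the catalytic subunit Atp5b rose by 0.71 (SE 0.09), its partner Atp5a1 by 0.61 (SE 0.08) and Atp5d of the central stalk by 0.71 (SE 0.10). The rotating shaft Atp5c1 changed by 0.22 (adjusted p = 0.115 in limma) and Atp5e by 0.26 (adjusted p = 0.0651). All 4 peripheral stalk subunits rose, from Atp5o, which ties the stalk to the head, at 0.72 (SE 0.09) to Atp5pb at 0.30 (SE 0.09). The call for Atp5pb (adjusted p = 0.0188 in limma) was lost without Hom-Ctrl replicate 1, without Het-NMyc replicate 2 and in 2 settings on the sample codes, with adjusted p-values up to 0.0699. All 5 small membrane subunits rose, led by Atp5md at 0.80 (SE 0.11, 1.74-fold). Atp5md ran from 10.25 to 11.23 on the Ctrl arrays and from 11.44 to 11.76 with N-Myc.

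Averaged by array, the mean log2 value over the 51 members was 9.28, 9.19 and 9.18 in WT-Ctrl, 9.39, 9.29 and 9.22 in Het-Ctrl and 9.48 and 9.50 in Hom-Ctrl. With N-Myc it was 9.65 and 9.67 in WT, 9.70 and 9.71 in Het and 9.73 and 9.74 in Hom. Every NMyc array was above every Ctrl array, and both Hom-Ctrl arrays lay above the other 6 Ctrl arrays. The mean over all tested probe sets was 6.56 to 6.60 on all 14 arrays. For complex IV alone the 2 sets met, with Hom-Ctrl at 8.83 and 8.86 and the NMyc arrays at 8.85 to 8.96. The sample codes in the labels fall into 3 runs, not named as batches there, and Ctrl and NMyc samples share 2 of them. Among the Ctrl arrays of one run the member mean was lowest in WT, next in Het and highest in Hom, in each of the 2 runs that hold all 3 genotypes and in the WT and Het samples of the remaining run. In code runs 2 and 3, which hold arrays of both vectors, N-Myc was compared with Ctrl within the run and the differences were averaged over the genotypes there, 3 in run 2 and 2 in run 3. In both runs this mean was positive for the 34 members that rose and negative for the 3 that fell, with medians over the 51 members of 0.41 and 0.53. Taken by genotype within a run, 1 of the 34 was not higher throughout, Atp5pb, with a difference of -0.00084 in Hom in run 2. With the run as a block in the fit, 38 members rose and 3 fell.

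**Figure D3:**
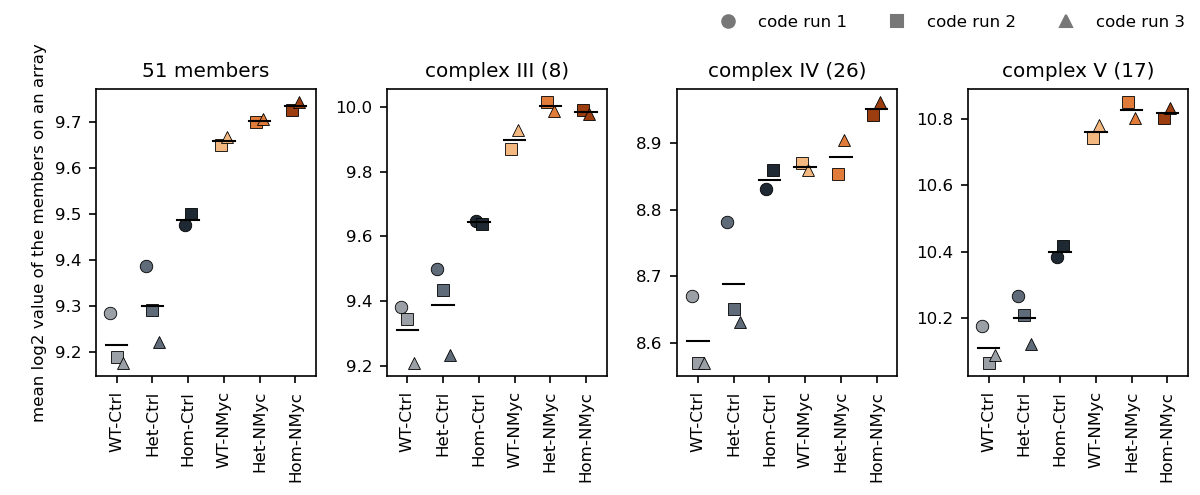
Mean log2 value per array over all 51 members and over those of complex III, IV and V, by group, with the run of the sample code as the marker and the group mean as a line; vertical axes differ and do not start at 0. The NMyc arrays, at 9.65 to 9.74 over all members, are above the Hom-Ctrl arrays at 9.48 and 9.50, which are above the remaining Ctrl arrays at 9.18 to 9.39.

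Genes of these complexes outside the name rule moved in the same comparison as follows, from lists of known factors. For complex III, 5 of 8 rose, among them Cyc1, the cytochrome c1 subunit (1.26, SE 0.13), cytochrome c itself, Cycs (0.77), the Rieske-inserting Bcs1l (0.66) and the assembly factor Uqcc1 (0.53). For complex IV, 10 of 15 rose and 1 fell. Those with the smallest p-values were Lrpprc, which stabilises mitochondrial mRNAs (1.67, SE 0.12), Taco1, a translation activator (0.98), Higd2a (0.55) and Cmc2 (0.54), while Higd1a fell by 0.38. The subunit Ndufa4 rose by 0.56 and the copper chaperone Sco1 by 0.57. For complex V all 6 rose, those with the smallest p-values being Fmc1 (0.77), the F1 assembly factor Atpaf2 (0.98) and Tmem70 (0.73). Several of these genes were near background. Lrpprc was above the negative-control 95th percentile on 6 of the 14 arrays, none of them Ctrl arrays. Cyc1 was above it on 9, Taco1 on 7, and Sco1, Atpaf2 and Tmem70 on 1 each. The size of these 6 changes is uncertain and no fold is given. In complex II, encoded wholly in the nucleus, the 4 subunits Sdha, Sdhb, Sdhc and Sdhd rose by 0.48 to 0.74, and of 4 assembly factors Sdhaf2 fell by 0.30 and the rest did not pass.

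Other mitochondrial families are given for comparison. Of 46 genes with symbols starting with Nduf, mostly complex I, 34 rose and 1 fell, with a median of 0.60, and of 76 genes of the mitochondrial ribosome (Mrpl and Mrps) 70 rose and 1 fell, with a median of 0.65. Whether these families differ from complexes III to V was not tested.

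Markers of blood cell types moved in the same comparison. The progenitor genes Spi1, Runx1 and Myb were present on all arrays and did not pass, while 3 of 7 progenitor markers, Ptprc, Cd34 and Kit, fell. Kit was lower with N-Myc in WT (9.97 to 9.24) and Het (9.92 to 9.38) but higher in Hom (9.47 to 9.85). Gata2, also on that list, had means of 11.69, 11.65 and 12.29 in WT, Het and Hom under Ctrl, and 11.48, 11.70 and 11.70 under NMyc. Of 7 neutrophil markers 5 fell and 2 rose, all 5 macrophage and all 3 megakaryocyte markers fell, and of 5 mast cell and basophil markers 4 fell and 1 rose. The mean log2 level of the neutrophil list was 11.39 to 12.11 on the Ctrl arrays and 10.77 to 11.02 with N-Myc, that of the macrophage list 9.19 to 10.78 and 7.75 to 8.28, that of the mast cell list 11.10 to 11.78 and 10.24 to 10.69, and that of the megakaryocyte list 9.79 to 10.47 and 7.13 to 7.51. No marker of these lists was at background on all arrays. Markers of erythroid and lymphoid cells were never above the negative-control 95th percentile. The same held for 4 of 5 fibroblast markers, Col1a1, Col1a2, Col3a1 and Pdgfrb, which bears on the fibroblast-derived packaging line. Thy1, also on that list, did not go with the other 4. It was above that percentile on 13 of 14 arrays and fell by 1.97. In bulk RNA, fewer cells of a type and less RNA per cell cannot be told apart, and the part of these markers in the members' changes was not tested.

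Within genotypes, fewer members were called in Hom than in WT or Het. In WT 28 members rose and 3 fell (10.1% and 9.05% of all probe sets), in Het 26 rose and 2 fell (11.1% and 8%) and in Hom 13 rose and 2 fell (10.7% and 7.01%). The member medians were 0.48, 0.46 and 0.26. The members that rose in all 3 genotypes were 12, namely Uqcrc1, Cox5b, Cox10, Cox15, Atp5a1, Atp5b, Atp5d, Atp5j, Atp5o, Atp5g1, Atp5g2 and Atp5g3, and Cox6b2 and Cox7a2l fell in all 3. Another 11 rose in WT and Het and were not called in Hom, among them Uqcrc2, Uqcr10, Cox6b1, Cox7a2, Cox7b and Atp5md. Cox11 rose in Hom and was not called in WT. The shares of all probe sets with these patterns are not given here, so the counts are not set against a background. Leaving out 1 array changed these counts, in either direction together, to 12 to 31 in WT, 16 to 31 in Het and 5 to 15 in Hom. The calls in Hom that were kept in all 23 alternative settings were those of Uqcrc1, Cox10, Atp5g1, Atp5g3 and Cox6b2. With the code run as a block, 32, 32 and 14 members were called in WT, Het and Hom. The calls of Cox6b2 and Uqcrc2 in WT and of Atp5b, Atp5d and Atp5g2 in Hom were then lost, with adjusted p-values of 0.0783, 0.0561, 0.0529, 0.0618 and 0.106 in limma. With 1 array left out, the lowest counts were 18 and 12 in WT without WT-NMyc replicate 1 or 2, 17 and 16 in Het without Het-NMyc replicate 1 or 2, and 7, 8 and 5 in Hom without Hom-Ctrl replicate 1 or Hom-NMyc replicate 1 or 2.

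Cox6b1 changed by 0.77 in WT and 0.62 in Het, both called, and by 0.06 in Hom (SE 0.21, adjusted p = 0.891 in limma). Its means in WT, Het and Hom were 10.42, 10.62 and 10.99 under Ctrl, and 11.19, 11.23 and 11.06 under NMyc. Cox7a2 changed by 0.92, 0.59 and 0.27, the last with an adjusted p of 0.331. Cox6b2 changed by -0.67, -0.75 and -1.62, all called. The WT call of Cox6b2 (adjusted p = 0.0422 in limma) was lost in 15 of 23 alternative settings, among them each array left out but WT-Ctrl replicate 3 and Het-Ctrl replicates 1 and 2, while its call in Hom was kept in all 23. Cox6a2 changed by -1.09, -0.76 and -0.31, of which the WT value was called, and lost without WT-NMyc replicate 2. The heme O synthase Cox10 had its largest change in Hom, with 0.63, 0.87 and 1.19, all called. Its means in WT, Het and Hom were 8.24, 8.09 and 7.79 under Ctrl, and 8.87, 8.97 and 8.98 under NMyc. Without Hom-Ctrl replicate 1 the changes in Hom were 0.21 for Cox6b1, 0.27 for Cox7a2, -1.57 for Cox6b2, -0.40 for Cox6a2 and 1.16 for Cox10. Of the 34 members that rose in the averaged comparison, 28 had their smallest change in Hom, 5 in WT and 1 in Het. The matching share over all probe sets is not given here, and all changes in Hom rest on the same Hom-Ctrl arrays.

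**Figure D4:**
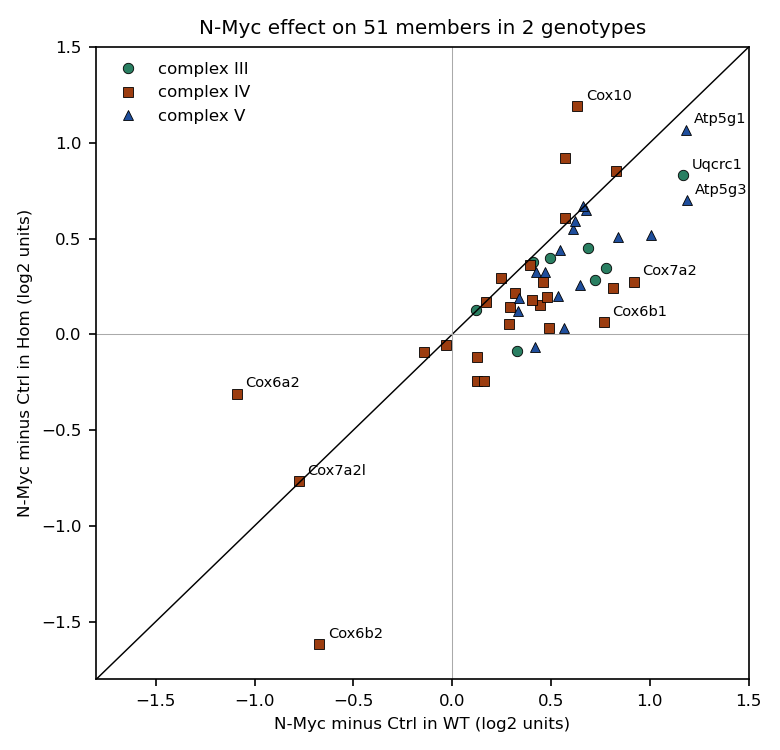
Change with N-Myc in WT (horizontal axis) against that in Hom (vertical axis) for the 51 members, both in log2 units, marked by complex, with the line of equal change. Most points with a rise lie below the line, Cox10 at 0.63 and 1.19 above it, and Cox6b2 at -0.67 and -1.62 far below it.

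No difference between these effects passed the test for any member. For Hom against WT, 18 of all probe sets were called (0.0811%), for Hom against Het 7 (0.0315%) and for Het against WT none (0%). For Hom against WT 41 of the 51 differences were negative, with a median of -0.18. The share of negative differences and the median over all probe sets are not given here. Of the members, 7 had an unadjusted p below 0.05 in limma (8.54% of all probe sets). The smallest p-values were those of Cox6b2 (-0.95, 95% interval -1.64 to -0.25, adjusted p = 0.379) and Cox7a2 (-0.64, 95% interval -1.14 to -0.14, adjusted p = 0.418). For Hom against Het they were those of Uqcr11 (-0.66, adjusted p = 0.592) and Cox6b2 (-0.87, adjusted p = 0.594), with 3 members at an unadjusted p below 0.05 (6.92%). For Het against WT they were those of Cox8c and Uqcrb, each with an adjusted p of 1.00, and no member had an unadjusted p below 0.05 (3.29%). None was called in any of the 23 alternative settings. These differences share the Hom-Ctrl and WT-Ctrl arrays with the genotype comparison that follows, so the 2 are not independent.

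Under the Ctrl vector, 6 members were higher in Hom than in WT cells, and most of the others had positive differences that did not pass. In limma 6 were called higher and none lower (2.03% and 1.88% of all probe sets, 3.91% in all). The median difference was 0.29, against -0.0012 over all probe sets, and 43 of 51 were positive (49.9% of all probe sets). Both Hom-Ctrl arrays lay above all 3 WT-Ctrl arrays for 28 members (14.1% of all probe sets) and below them for 2 (13.7%). Taken singly against the same WT-Ctrl mean, which they share, replicate 1 had a median difference over the members of 0.28 (0.0080 over all probe sets) and replicate 2 of 0.26 (-0.014).

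Cox6b2 read 8.64 and 8.54 in Hom-Ctrl against 7.61, 7.34 and 6.63 in WT-Ctrl, a difference of 1.39 (SE 0.22, adjusted p = 0.00311 in limma). WT-Ctrl replicates 2 and 3 were below the negative-control 95th percentile of their arrays, so that the size of this difference is uncertain. This call was kept in all 23 alternative settings, with changes from 1.11 to 1.60. Cox18 read 8.90 and 9.20 against 8.42, 8.14 and 8.51, a difference of 0.69 (SE 0.16, adjusted p = 0.0245 in limma). Cox7a2 read 10.29 on both Hom-Ctrl arrays against 9.55, 9.77 and 9.49, a difference of 0.69 (SE 0.16, adjusted p = 0.0253). The Hom-Ctrl arrays were above the WT-Ctrl arrays in each of the 3. Uqcrc2 read 8.03 and 8.49 against 7.68, 7.52 and 7.62, Cox6c 11.03 and 11.27 against 10.73, 10.56 and 10.47, and Cox15 8.25 and 8.73 against 7.71, 7.36 and 8.12. Their differences were 0.65, 0.56 and 0.76, with adjusted p-values of 0.0279, 0.0446 and 0.0446 in limma, and again the arrays did not overlap. Of the 23 alternative settings the call was lost in 4 for Cox18, 5 for Uqcrc2, 7 for Cox7a2, 15 for Cox6c and 16 for Cox15. With the code run as a block 5 were called, Cox6c being lost (adjusted p = 0.0609 in limma).

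Leaving out either Hom-Ctrl replicate leaves 1 array in that group. Without replicate 1 the differences were 1.34 for Cox6b2, 1.00 for Cox15, 0.88 for Uqcrc2, 0.84 for Cox18, 0.69 for Cox7a2 and 0.68 for Cox6c. Without replicate 2 they were 1.44, 0.52, 0.43, 0.54, 0.69 and 0.44. Fewer calls were left in both cases, among the members and over all probe sets. Without WT-Ctrl replicate 2 or 3 there were 2 and 3 member calls (3.53% and 2.13% of all probe sets, against 3.91% with all arrays). In the same comparison Mrc1 of the 5 macrophage markers and Ltf of the 7 neutrophil markers fell. Ms4a2 and Fcer1a of the 5 mast cell markers and Gata2 of the 7 progenitor markers rose. Thy1 also rose, while the other 4 of the 5 fibroblast markers were never above the negative-control 95th percentile. These lists did not all move as one. By group means the macrophage marker Adgre1 was higher in Hom-Ctrl (10.46 against 9.88 in WT-Ctrl), while Csf1r, Lyz2 and Mmp12 were lower. Of the progenitor markers Kit (9.47 against 9.97), Ptprc, Spi1 and Myb were lower, Runx1 was slightly higher and Cd34 was level. The neutrophil markers Elane (12.57 against 12.59), Mpo (12.25 against 12.24) and Ngp were nearly level, and Camp, Lcn2 and Mmp9 were lower. The mean level of the neutrophil list was 11.39 to 11.55 in Hom-Ctrl and 11.87 to 12.01 in WT-Ctrl, and that of the mast cell list 11.49 to 11.78 and 11.16 to 11.22. The part of these in the members' differences was not tested. Of the Nduf genes 5 of 46 and of the mitochondrial ribosome genes 3 of 76 rose, none fell, and among the further factors of the 3 complexes Uqcc2 and Ndufa4 rose.

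**Figure D5:**
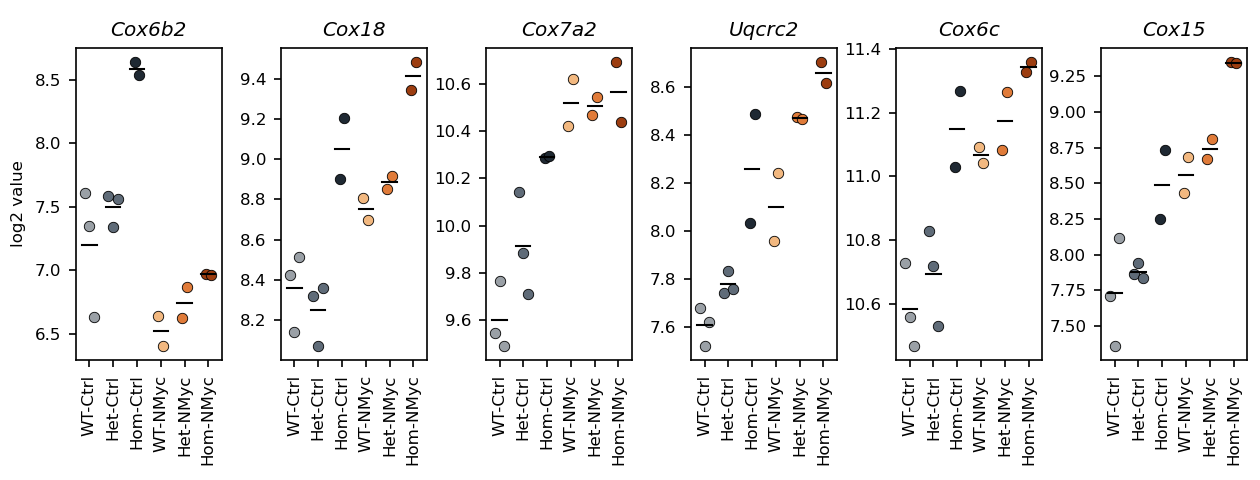
Log2 value on each array of the 6 members higher in Hom-Ctrl than in WT-Ctrl, by group, with the group mean as a line; vertical axes differ and do not start at 0. The Hom-Ctrl arrays are above the WT-Ctrl arrays in all 6, and for Cox6b2 (8.64 and 8.54) they are also above all NMyc arrays.

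Against Het-Ctrl, 2 members were higher in Hom-Ctrl (1.34% of all probe sets rose, 2.4% were called), Cox6b2 by 1.09 (SE 0.22, adjusted p = 0.0165 in limma) and Cox18 by 0.80 (SE 0.16, adjusted p = 0.0150). Both calls were lost without Hom-Ctrl replicate 2 and without Het-Ctrl replicate 2. Without Hom-Ctrl replicate 1 and without Het-Ctrl replicate 3, 1 call was left. No member was called between Het-Ctrl and WT-Ctrl (0% of all probe sets in limma), with Cox7a2 (0.31) and Cox8c (0.31) at the smallest p-values, an adjusted p of 0.999 for each and 1 member at an unadjusted p below 0.05 (4.21% of all probe sets). The 3 comparisons share arrays.

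Among NMyc arrays no member was called between genotypes in limma, nor was any probe set (0%). For Hom against WT the smallest p-values were those of Cox18 (0.66, 95% interval 0.29 to 1.03, adjusted p = 0.340) and Cox15 (0.79, 95% interval 0.32 to 1.25, adjusted p = 0.354), with 4 members at an unadjusted p below 0.05 (8.43% of all probe sets). Cox18 read 9.34 and 9.48 in Hom-NMyc against 8.81 and 8.70 in WT-NMyc, and Cox15 read 9.35 and 9.34 against 8.43 and 8.69, so that neither overlapped. For both, the interval under NMyc holds the difference seen under Ctrl. Against Het-NMyc they had differences of 0.53 and 0.61 (adjusted p = 0.978 for each), with 4 members at an unadjusted p below 0.05 (4.92%). For Het against WT under NMyc, Uqcrc2 (0.37) and Cox7b2 (-0.32) had the smallest p-values, an adjusted p of 1.00 for each and 2 members at an unadjusted p below 0.05 (2.59%). With array weights 2 members were called for Hom against WT under NMyc.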

How the data were processed

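RNA of 14 samples was labelled with the WT PLUS kit for Affymetrix arrays, per the labels' protocols. The values the authors deposited are log2 signals per probe set, and the submitters' processing notes name Affymetrix Expression Console. Neither its settings nor a genome build is given in the sources used here. Of the 22206 probe sets tested, 19572 have 1 symbol in the platform annotation, none has several and 2634 are not listed. Another 6640 control sets, recognised by their identifiers, were left out.

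A model of 6 group means, with groups from the sample titles, was fitted with limma 3.58.1 in R 4.3.3 (8 residual and 7.30 prior degrees of freedom) and 13 contrasts were taken. Changes are log2 differences with the fit's SE, and the number of arrays limits precision. The labels call the samples biological replicates without naming animals or cultures, so the p-values measure only the spread between these samples. The fit was tested on simulated data.

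The members and lists were chosen with earlier results of these data known. Values are given for up to 4 called members of a role with the largest averaged change, tissue isoforms, members against their class or called for a genotype, the 2 smallest p-values where none was called, and up to 4 called factors of each complex. Itgad was chosen after its values were seen. Replicate numbers, in a check of deviations from the group means, paired WT-Ctrl with Het-Ctrl samples (correlations of 0.235, 0.266 and 0.249), which also share code runs, while other groups share at most 2 numbers, or, as with Ctrl and NMyc, have samples of one number in different runs. Alternatives were other normalizations, filters, variance settings, blocks and leaving out each array.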

Additional observations from a re-analysis of the deposited data

Results flagged for a closer look

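Among probe sets without a symbol, 9 carry the letter M in the place where the identifiers of named probe sets hold the chromosome (this code matched the chromosome of the gene table in 19506 of 19508 named sets). They lie outside the members and have no name here. For the averaged N-Myc effect 1 rose, TC0M00000011.mm.2, by 0.27 on the log2 scale (SE 0.08, adjusted p = 0.0229 in limma), and 1 fell, TC0M00000027.mm.2, with a change of -0.55 (SE 0.12, adjusted p = 0.00223 in limma), while 7 were not called. Of the 9, 7 were above the 99th percentile of all tested values on all 14 arrays. These 2 are listed because they are signals outside the measured members.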

How the results depend on the processing

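For the averaged N-Myc effect 35 of the 37 calls were kept in all 23 alternative settings and no call changed direction; the other 2 are Atp5pb and Cox7c. Members that rose numbered 33 to 38, and 32 to 37 with 1 array left out; 3 fell in each. The median change was 0.35 with quantile normalization and 0.47 with median centring, against 0.42, and 0.40 to 0.43 with 1 array left out. With 1 array left out the calls were 12 to 31 in WT, 16 to 31 in Het and 5 to 15 in Hom, and with code runs 2 and 3 alone 9 in Hom, where fewer arrays enter. For Hom against WT under Ctrl 6 members were called with the main settings (3.91% of all probe sets). There was 1 with only the AFFX control sets left out (1.53%) and 1 with array weights (1.59%). With an intensity trend and robust variance there were 11 (5.57%). After the filter on low values 8 members were higher and 1 was lower in Hom, with 13.6% of the probe sets kept being called. With 1 array left out there were 1 to 6 (median change 0.24 to 0.31). For Hom against Het under Ctrl there were 1 with only the AFFX sets left out, 4 after the filter on low values, 1 with code runs 2 and 3 alone and 0 to 2 with 1 array left out. For Hom against WT under NMyc 2 were called with array weights. The cause of these changes was not tested. The counts of 0 for Het against WT and Hom against Het under NMyc, Het against WT under Ctrl and the 3 differences of effects stayed 0 in all 23 settings. Against the 95th percentile of the negative controls in place of their median, 14 members rather than 2 were not above background on every array. With the 250 bases before the start alone, 5 in place of 8 genes held the NRF1 motif. With the replicate block 34 members rose and 3 fell for the averaged effect and 4 were called for Hom against WT under Ctrl; same-numbered samples had correlated deviations of -0.13 to 0.27, with a median of 0.01, and 7 of 31 pairs were above 0.1. Samples of the same code run had a median of 0.080 with 9 of 28 pairs above 0.1, against -0.067 and 1 of 53 for samples of different runs. After the filter on low values 46 of the 51 members were tested among 9292 probe sets.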
